A study of Mus musculus with 14 samples.

Results

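The genes of heme synthesis and breakdown were followed in the liver of male and female CD-1 mice, an outbred laboratory strain, from 3 wk to 8 wk of age. The 9 genes were Alas1, Alas2, Alad, Uros, Urod, Cpox, Ppox, Fech and Hmox1, chosen by name, and each probe whose accession carried one of these symbols was taken. They were represented by 11 of the 39429 probes and by 9 of the 19751 named genes on the arrays. Male (M) and female (F) liver was taken at 3 wk (pools of 5 mice) and at 4 and 8 wk (pools of 6 mice), with no treatment named for any group, which gave the groups M3, F3, M4, F4, M8 and F8. The arrays were 14 two-colour hybridizations in 7 comparisons. The sexes were compared at each age (M3/F3, M4/F4 and M8/F8), and within each sex 8 wk was compared with the younger ages (M8/M4 and M8/M3 in males, F8/F4 and F8/F3 in females). Each comparison was made with 2 separate pairs of RNA pools and with the dyes exchanged. A pool averages its mice, so the spread between individual animals was not measured.

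Heme is made from glycine and succinyl-CoA by a chain of enzymes that begins and ends in the mitochondrion. The opening and rate-limiting step is carried out by 5-aminolevulinate synthase, which exists as a housekeeping isozyme encoded by Alas1, the main form in hepatocytes, and as an erythroid isozyme encoded by the X-linked gene Alas2. Alad, Uros, Urod, Cpox and Ppox encode the enzymes that turn 5-aminolevulinate into protoporphyrin, Fech encodes the ferrochelatase that inserts iron, and Hmox1 encodes the inducible heme oxygenase that opens the ring. In liver a large part of the heme goes to the cytochromes P450, and Alas1 is known to be held down by heme and to follow feeding and the circadian clock.

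The isozyme genes differ in their start regions, which are shown here because the isozymes gave the largest changes. The windows are RefSeq promoter windows on GRCm38.p6, written in the direction of transcription from 250 bases before to 50 bases after an annotated start. RefSeq windows were held for 7 of the 9 genes, and for Alas1 there were 2 of them. Capitals mark motif matches on either strand.
Alas1, chr9:106247681-106247980, minus strand: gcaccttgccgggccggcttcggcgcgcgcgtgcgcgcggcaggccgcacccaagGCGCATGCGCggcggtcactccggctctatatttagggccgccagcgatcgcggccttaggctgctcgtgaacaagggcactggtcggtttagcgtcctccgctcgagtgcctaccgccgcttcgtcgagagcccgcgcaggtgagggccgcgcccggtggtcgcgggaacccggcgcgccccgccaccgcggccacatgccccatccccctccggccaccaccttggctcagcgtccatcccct
Alas2, chrX:150547167-150547466, plus strand: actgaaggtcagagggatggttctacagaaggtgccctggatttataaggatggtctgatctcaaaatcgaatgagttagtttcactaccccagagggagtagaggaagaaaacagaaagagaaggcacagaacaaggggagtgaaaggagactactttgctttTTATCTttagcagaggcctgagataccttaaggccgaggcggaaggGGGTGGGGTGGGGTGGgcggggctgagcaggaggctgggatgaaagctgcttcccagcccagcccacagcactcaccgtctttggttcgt
The capitals in the Alas1 window mark the 10-letter core bound by the factor NRF1, found 1 time here, 195 bases before the start, and in 0.971% of the 32851 windows of this length. The other Alas1 window overlaps it and holds the same letters, with 1 match each to CCACCC and to TTCNNNGAA (a STAT5-type motif, in 8.3% of all windows). The capitals in the Alas2 window mark AGATAA, bound by GATA factors and found on the reverse strand 86 bases before the start and in 11.2% of all windows, and 3 overlapping copies of CCACCC on the reverse strand, a motif found in 31.5% of all windows. Also searched were the GATA variants AGATAG (8.95% of all windows) and TGATAA (9.05%) with TGATAG (7.29%), and the D-box TTANGTAA (2.32%). None of these, nor TTCNNNGAA, lay in either window shown. Any of the 4 GATA motifs lay in 29.8% of all windows, and GATA motifs also lay in the Cpox window and in a Uros window. These matches describe the letters only.

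Ratios are given as log2 of male over female or of 8 wk over the younger age, as the mean of 2 arrays. A probe was called at a limma adjusted p below 0.05 with a ratio beyond 1.5-fold, provided that its signal was well above background (the scanner software's flag) in 1 or both groups on each of the 2 arrays. All 11 probes of the heme genes were well above background in all 28 channels. At 3 wk the test found no difference between the sexes: in M3/F3 0 of the 9 genes were called, against 0.464% of all tested probes (1 gene, Ppox, had an unadjusted p below 0.05, and the error-weighted average called 0). In M4/F4 1 of 9 was called (1.44% of all probes) and in M8/F8 2 of 9 (6.31%). With age, 2 of 9 were called in M8/M3 (16.8%), 2 in M8/M4 (10.1%) and 1 in F8/F3 (10.8%). In F8/F4 0 were called (5.41%), where Alas1, Alad and Fech had unadjusted p-values below 0.05 and the error-weighted average called 0. Each of these calls was of Alas1 or Alas2. The median log2 ratio of the 9 genes lay between -0.09 in M3/F3 and 0.12 in M8/F8, and that of all tested probes between 0.00306 and 0.02 in the 7 comparisons. The comparisons share RNA pools, so their values are not independent of each other.

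Alas1 was lower at 8 wk than at 3 wk in both sexes. In M8/M3 its log2 ratio was -2.17 on replicate 1 and -1.84 on replicate 2, a mean of -2.0 ± 0.18 (SE) or 4.01-fold lower at 8 wk (limma adjusted p = 0.000842). In F8/F3 it was -1.14 and -0.73, a mean of -0.93 or 1.91-fold lower (adjusted p = 0.0149). The call in F8/F3 rested on replicate 1, since without it the value was -0.64 with an adjusted p of 0.157. From 4 wk to 8 wk M8/M4 was -0.79 and -0.85, a mean of -0.82 (adjusted p = 0.0240), whereas F8/F4 was 0.44 on both arrays (adjusted p = 0.169, not called). The M8/M4 call was lost without either of its arrays (adjusted p = 0.150 and 0.135). As livers were analysed whole, fewer cells of a type and less RNA per cell cannot be told apart for any of these genes.

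At 8 wk Alas1 was lower in male than in female liver. The M8/F8 log2 ratio was -1.73 and -1.40, a mean of -1.57 ± 0.18 (SE) or 2.96-fold lower in males (adjusted p = 0.00205). The same ratio was -0.68 and -0.14 at 3 wk (mean -0.41, adjusted p = 0.198) and -0.52 and -0.05 at 4 wk (mean -0.29, adjusted p = 0.391), so male liver was the lower on all 6 arrays while only the 8 wk difference passed the test. The test of whether the age change differed between the sexes gave -1.07 for 3 to 8 wk (adjusted p = 0.0694) and -1.26 for 4 to 8 wk (adjusted p = 0.0737), and neither was called. With the replicate block, a term that shifts all ratios of a replicate number alike, both interactions of Alas1 passed (adjusted p = 0.0155 and 0.0180). That term does not model shared pools, since an F8 pool is the denominator in M8/F8 but the numerator in F8/F3. With the shared pools as a random effect neither interaction passed (adjusted p = 0.164 and 0.233).

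No array compared 3 wk with 4 wk directly, but both ages were hybridized against the same 8 wk groups. Through these the change of Alas1 from 3 to 4 wk was -1.18 in males (adjusted p = 0.112) and -1.37 in females (adjusted p = 0.127), and neither was called (0 of the 9 genes in either sex, against 0.228% and 0.0897% of all probes; Alas1 had an unadjusted p below 0.05 in both, as did Hmox1 in males and Urod in females). With the replicate block they were called (adjusted p = 0.0452 and 0.0408). They were also called with the 6 group means and the error-weighted averages. They were not called with the shared pools as a random effect (adjusted p = 0.0604 and 0.0681), with the slide as a block (0.0571 and 0.0789) or with normexp and loess (0.118 and 0.124). Solved for group levels relative to the mean of the 6 groups, the pools of Alas1 lay at 1.39 and 0.88 in F3, at 0.70 and 0.70 in M3, at 0.25 and 0.18 in F8, at -0.18 and -0.26 in F4, at -0.69 and -0.32 in M4 and at -1.48 and -1.18 in M8. In this order the neighbours F3 and M3, F8 and F4, and F4 and M4 did not pass the test of their own arrays, and M8 stood below M4. M3 and F8, also neighbours, were not hybridized together.

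The second Alas1 probe had smaller ratios of the same sign in all 7 comparisons. It was called in M8/M3 (-1.02, adjusted p = 0.00213) and M8/F8 (-0.71, adjusted p = 0.00883). It was at -0.19 in M8/M4 (adjusted p = 0.385) and at -0.55 in F8/F3 (adjusted p = 0.0226, below 1.5-fold). The size of the change in Alas1 therefore differed between probes, and its M8/M4 and F8/F3 calls were made on the main probe alone.

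Alas2 moved the other way in male liver and was not called with age in female liver. In M8/M3 its log2 ratio was 1.33 and 1.41, a mean of 1.37 ± 0.16 (SE) or 2.59-fold higher at 8 wk (adjusted p = 0.00229). In M8/M4 it was 0.91 and 1.06, a mean of 0.98 or 1.98-fold higher (adjusted p = 0.00823), and without replicate 2 of that comparison the call was lost (0.86, adjusted p = 0.0884). In female liver F8/F3 was 0.07 and -0.62 (mean -0.27, adjusted p = 0.360) and F8/F4 was -0.22 and -0.26 (mean -0.24, adjusted p = 0.431). The difference between the sexes in the change from 3 to 8 wk was itself called, at 1.64 ± 0.23 (SE, adjusted p = 0.0134), the 1 call among the 9 genes in that test (3.22% of all probes). The corresponding difference from 4 to 8 wk was 1.22 (adjusted p = 0.0590), and 0 of the 9 genes were called there (1.34% of all probes, with Alas1, Alas2 and Hmox1 at an unadjusted p below 0.05).

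Alas2 was higher in male liver at 8 wk. The M3/F3 log2 ratio was 0.48 and 0.09 (mean 0.29, adjusted p = 0.326), the M4/F4 ratio was 0.70 and 0.86 (mean 0.78, 1.72-fold, adjusted p = 0.0199), and the M8/F8 ratio was 1.78 and 1.99 (mean 1.89 ± 0.16, 3.7-fold, adjusted p = 0.000725). The ratio was above 0 on all 6 arrays, with the 8 wk arrays above all others. The M4/F4 call was lost without either of its arrays (adjusted p = 0.102 and 0.142), with the slide as a block (adjusted p = 0.0547) and with adjustment within each comparison (adjusted p = 0.0876). Relative to the mean of the 6 groups, the pools of Alas2 lay at 1.24 and 1.29 in M8, at 0.35 and 0.28 in M4, at -0.11 and -0.10 in M3, at -0.60 and -0.17 in F3, at -0.34 and -0.54 in F4 and at -0.54 and -0.76 in F8. M8 stood above M4 by the test of their own arrays, while the pools of F3 overlapped those of F4 and F8. The F8 pools lay just below those of F4, a difference that did not pass the test of their own arrays.

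**Figure D1:**
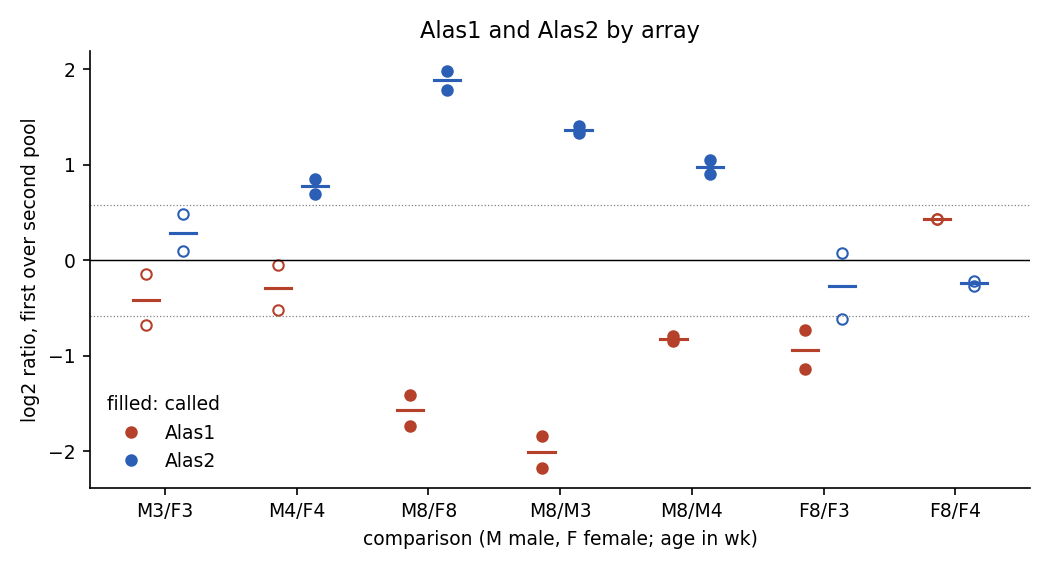
The log2 ratio of Alas1 (red) and Alas2 (blue) on each of the 14 arrays, with 1 circle per array, a bar at the fitted mean, filled circles where the gene was called, and dotted lines at 1.5-fold. In M8/F8, M8/M3 and M8/M4 both arrays of Alas1 lie below 0 and both arrays of Alas2 above 0.

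The isozyme genes were then set against each other within each array, as the log2 ratio of Alas1 minus that of Alas2. This difference measures unequal change and not which transcript was the more abundant, since the probes are not comparable in level. It was -3.51 and -3.39 in M8/F8 (mean -3.45 ± 0.29 SE, adjusted p = 0.000710), -3.51 and -3.24 in M8/M3 (mean -3.38, adjusted p = 0.000767) and -1.70 and -1.90 in M8/M4 (mean -1.80, adjusted p = 0.00796). In the other comparisons it did not pass: -0.70 in M3/F3 (adjusted p = 0.182), -1.06 in M4/F4 (adjusted p = 0.0555, but 0.0354 with the replicate block), -0.66 in F8/F3 (adjusted p = 0.204) and 0.68 in F8/F4 (adjusted p = 0.193). All 3 comparisons that passed involve M8. The M8/M4 difference no longer passed without either of its arrays.

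Because Alas2 is an erythroid gene, markers of red cell precursors were examined in the same arrays. The young liver still holds some blood formation, and transcripts of the red cell membrane and of the erythroid factors were seen there. Of 26 erythroid markers with a probe, 13 were well above background at both ages in M8/M3, where 4 fell and 0 rose with a median of -0.15 (8.56% of all probes fell, and 5 tested markers were above 0 at an unadjusted p below 0.05). In M8/M4 3 of 13 such markers fell and 0 rose, with a median of -0.05 (5.44% of all probes fell, 2 tested markers above 0 at an unadjusted p below 0.05). In F8/F3 4 of 13 fell and 1 rose, with a median of -0.01 (5.52% of all probes fell), and in F8/F4 5 of 15 fell and 0 rose, with a median of -0.33 (2.98% of all probes fell, 2 tested markers above 0 at an unadjusted p below 0.05). The 4 that fell in M8/M3 were Hba-a1, an alpha globin (-1.18, adjusted p = 0.00251), Slc4a1, the band 3 anion exchanger (-1.93, adjusted p = 0.000297), Trim10 (-2.16, adjusted p = 0.00170) and Tfrc, the transferrin receptor (-1.35, adjusted p = 0.0108). The other 9 of the 13 were not called and ranged from the -0.53 of Tal1 to the 0.32 of Tfr2. A further 8 markers, among them Epb42, Gata1 and Rhd, were not well above background in M8 on either array and entered the test only through M3, where they were brighter, so that their direction was fixed by that filter and only a bound is known. Rhd was at least 2.45-fold and Gata1 at least 1.52-fold lower than at 3 wk. The same held for 8 markers of the M8/M4 arrays, for 6 of F8/F4 and for 8 of F8/F3.

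Of the erythroid markers measured at both ages, the 4 called in M8/M3 and the 3 called in M8/M4 had the opposite sign to Alas2, while Tfr2 (0.32, adjusted p = 0.00618) and Epor (0.16, adjusted p = 0.0232), below 1.5-fold, had its sign in M8/M3. Tal1, also below 1.5-fold, had the opposite sign to Alas2 in M8/M3 (-0.53, adjusted p = 0.000942) and M8/M4 (-0.47, adjusted p = 0.00144). The part of red cell precursors in the Alas2 values was not tested. In M8/F8, where Alas2 was 3.7-fold higher in males, 12 erythroid markers were tested, of which 0 rose and 1, Nfe2, fell (-1.04, adjusted p = 0.0162), with a median of -0.03 (3.49% of all probes fell, and 2 markers were above 0 at an unadjusted p below 0.05). Of the 26 markers 13 were well above background in no M8 channel and 10 in no F8 channel, with Epb42 and Gata1 in both counts. The summed processed intensity of the 26 markers ranged from 82920 to 156289 in M3, from 83210 to 178936 in F3, from 102173 to 158464 in M4, from 102956 to 160576 in F4, from 83939 to 116792 in M8 and from 81317 to 139892 in F8. All 12 hepatocyte markers were well above background in every channel of all groups, with 1 of 12 lower in M8/F8 (Hpd, -0.76; 3.49% of all probes were lower). Alb (-0.57), Cps1 (-0.52), Ass1 (-0.41), Tat (-0.41) and Fah (-0.32) also had an adjusted p below 0.05 there, below 1.5-fold. In M8/M3 2 hepatocyte markers were higher (Pck1, 1.36, and Serpina1a, 0.83) and 2 lower (Alb, -0.71, and Trf, -0.64), against 16.8% of all probes called. In M8/M4 0 were higher and 1 lower (Alb, -0.68), against 10.1% of all probes called.

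**Figure D2:**
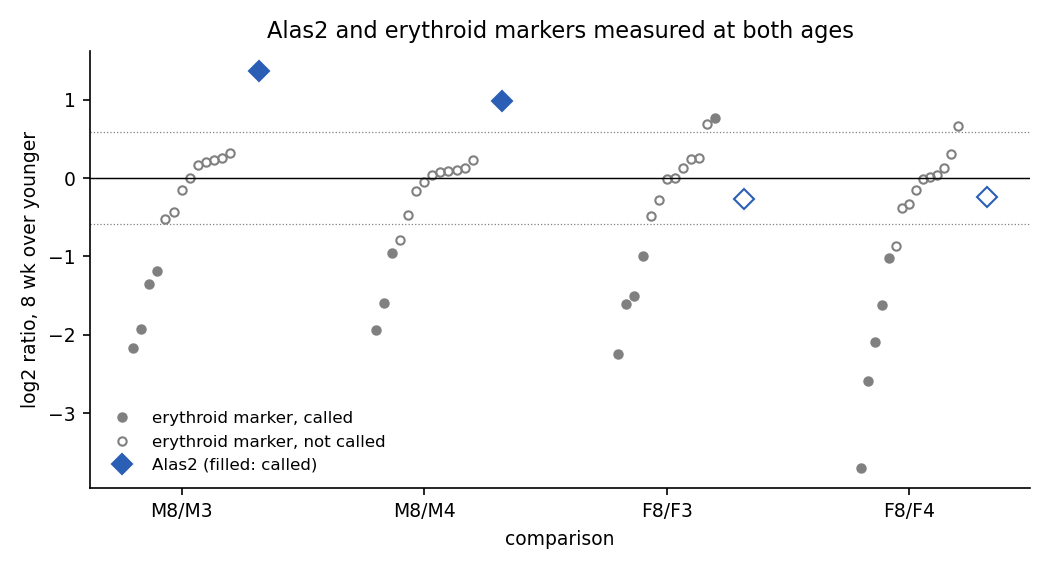
Log2 ratio of 8 wk over the younger age for Alas2 (diamonds) and for erythroid markers measured at both ages (circles, ordered by value), filled where called, with dotted lines at 1.5-fold. In M8/M3 and M8/M4 Alas2 lies above all of these markers, and in F8/F3 and F8/F4 it lies near 0.

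The enzymes between the synthase and ferrochelatase moved little. Alad, which joins 2 molecules of 5-aminolevulinate, ranged from -0.18 in M8/F8 (adjusted p = 0.0938) to 0.23 in F8/F3 (0.27 and 0.18, adjusted p = 0.0457, 1.17-fold). Uros, which closes the porphyrin ring, lay between -0.14 and 0.16 in the 7 comparisons. Urod, the decarboxylase that follows, lay between -0.09 and 0.12, the upper value being M8/F8 (0.13 and 0.11, adjusted p = 0.0286, 1.09-fold). None of these passed 1.5-fold.

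Cpox and Ppox, the mitochondrial oxidases of the pathway, were not called in any comparison. The Cpox arrays disagreed with each other, at -0.28 and 0.47 in M4/F4 and at -0.75 and -0.12 in F8/F4, and its SE of 0.23 was the largest of the 9 genes. Its largest ratio was -0.54 in F8/F3 (-0.53 and -0.54, adjusted p = 0.203). Ppox was highest in M4/F4, at 0.23 (0.29 and 0.18, adjusted p = 0.0621), and lay at -0.01 in M8/F8.

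Fech, the ferrochelatase gene, was higher at 8 wk on all 8 age arrays, although below 1.5-fold. In M8/M3 its log2 ratio was 0.46 and 0.48, a mean of 0.47 ± 0.05 (SE) or 1.39-fold (adjusted p = 0.00179), and in M8/M4 it was 0.35 and 0.36, a mean of 0.36 (adjusted p = 0.00519). In females it was 0.36 and 0.27 in F8/F3 (mean 0.32, adjusted p = 0.00822) and 0.32 and 0.10 in F8/F4 (mean 0.21, adjusted p = 0.0380). An adjusted p below 0.05 with no regard to fold was reached by 38.9%, 27%, 30.7% and 18.8% of all probes in these comparisons. The sexes did not differ in Fech by the test at 8 wk (0.12, adjusted p = 0.201), and the interaction was 0.15 in both age spans (adjusted p = 0.332 and 0.465). Fech is also strongly expressed in red cell precursors. By the same criterion, an adjusted p below 0.05 with no regard to fold, the erythroid markers Tfr2 (0.32 for M8/M3, 0.26 for F8/F3) and Epor (0.16 and 0.24) had the sign of Fech, as did Nfe2 in F8/F3 (0.77), while markers such as Slc4a1 and Trim10 had the opposite sign. The part of red cell precursors in the Fech values was not tested.

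Hmox1, the gene of inducible heme oxygenase, was higher in M8 than in M4, just under the fold threshold. The log2 ratio was 0.69 and 0.39, a mean of 0.54 ± 0.07 (SE) or 1.45-fold (adjusted p = 0.00440). Without replicate 2 it was 0.70 and passed both thresholds (adjusted p = 0.00518). Its second probe gave 0.36 (0.33 and 0.39, adjusted p = 0.0453). In M8/M3 the main probe gave 0.26 and 0.28 (mean 0.27, adjusted p = 0.0573), and in F8/F3 and F8/F4 it gave -0.06 and 0.16 (adjusted p = 0.744 and 0.242). Relative to the mean of the 6 groups, the lowest pools of Hmox1 were those of M4 (-0.38 and -0.19) and the highest those of M8 (0.31 and 0.21). Between the sexes Hmox1 lay at -0.13, -0.19 and 0.22 at 3, 4 and 8 wk, none of them called.

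Hmox1 is made in Kupffer cells, the liver macrophages that clear old red cells, as well as in hepatocytes. The Kupffer markers went the other way in M8/M4, with 2 of 13 lower (Adgre1, -0.92, and Marco, -1.56), 0 higher and a median of -0.49 (5.44% of all probes were lower). Without M8/M4 replicate 1 the count was 8 and without replicate 2 it was 1. None of the 13 was above 0 at an unadjusted p below 0.05. Their summed processed intensity ranged from 65266 to 94830 in M4 and from 47265 to 64277 in M8, and all 13 were well above background in every channel. Their part in the Hmox1 values was not tested. Of 7 other targets of NRF2, the stress-response factor that also activates Hmox1, 0 rose and 1 fell in M8/M4 (Nqo1, -0.84, adjusted p = 0.00874), against 10.1% of all probes called. Their median there was 0.10, with 1 above 0 at an unadjusted p below 0.05.

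**Figure D3:**
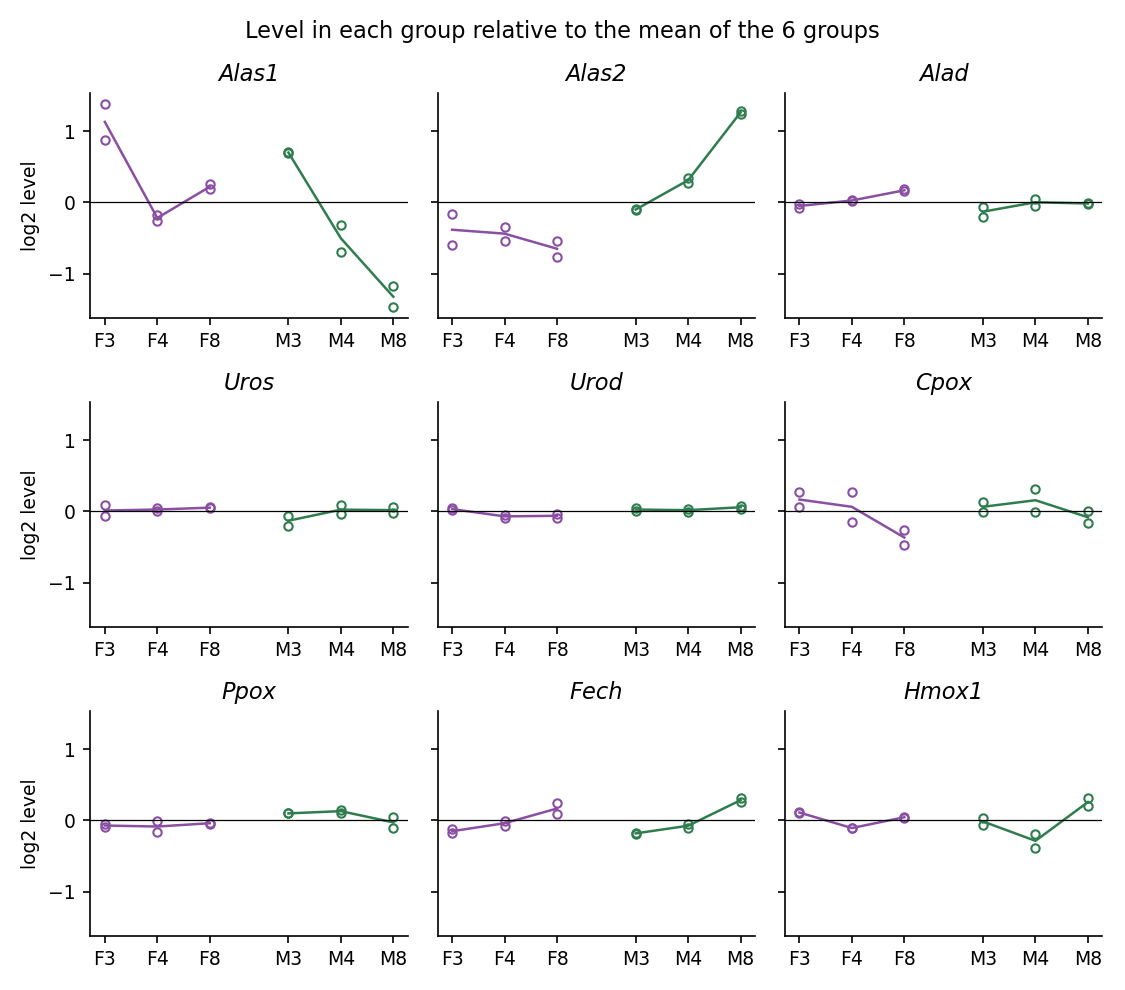
Level of each of the 9 genes in each group as log2 relative to the mean of the 6 groups, with 1 circle per pool and lines through the group means (purple female, green male, ages in wk). Alas1 and Alas2 span the widest range, M8 is the lowest group of Alas1 and the highest of Alas2, and Fech is highest in M8 and F8.

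**Figure D4:**
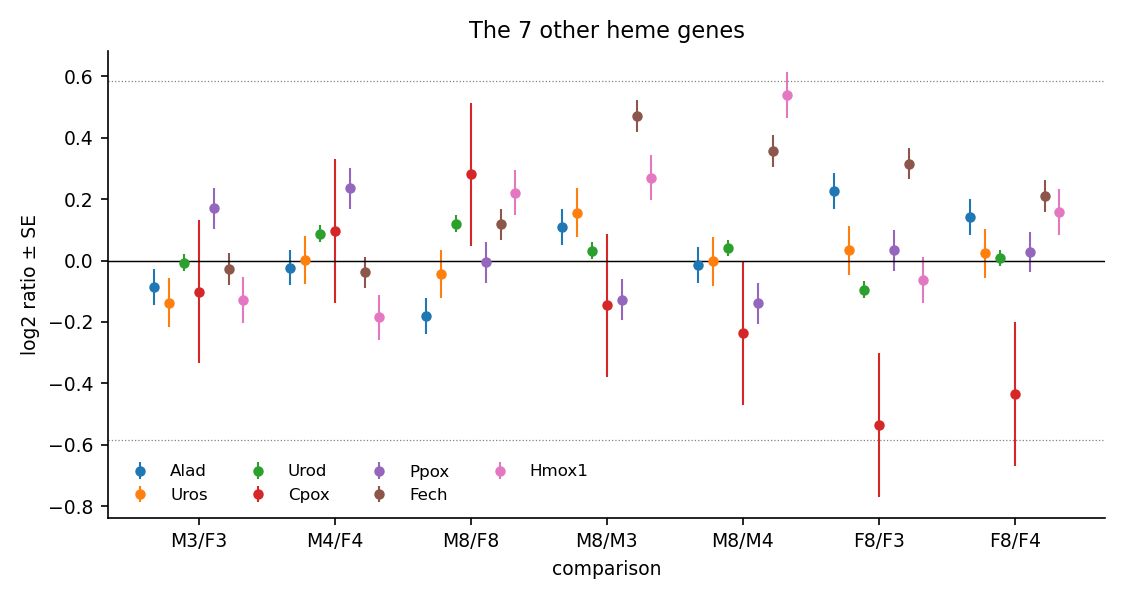
Fitted log2 ratio ± SE (2 arrays per comparison) of the 7 heme genes other than Alas1 and Alas2 in the 7 comparisons, with dotted lines at 1.5-fold. No gene passes the dotted lines, Fech lies above 0 in the 4 age comparisons, and Cpox has the widest error bars.

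A wider set of 32 genes with a probe was examined for the supply, transport, use and disposal of heme. In M8/F8 2 of 32 rose, 2 fell and the median was 0.07 (6.31% of all probes were called). In M8/M3 4 rose and 0 fell (16.8% of all probes were called, 5 genes below 0 at an unadjusted p below 0.05), in M8/M4 2 rose and 0 fell (10.1% of all probes were called, 3 genes below 0 at an unadjusted p below 0.05), and in F8/F3 1 rose and 1 fell (10.8% of all probes were called). In M3/F3, M4/F4 and F8/F4 0 were called in either direction, while 4, 8 and 8 had an unadjusted p below 0.05 (0.464%, 1.44% and 5.41% of all probes were called).

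The transporters Abcb10 and Abcg2 followed the direction of Alas2 in M8. Abcb10, a mitochondrial inner membrane transporter that aids heme synthesis in red cell precursors, had log2 ratios of 0.84 and 0.88 in M8/F8 (mean 0.86, adjusted p = 0.000447), 0.89 and 0.64 in M8/M3 (mean 0.77, adjusted p = 0.000658) and 0.54 and 0.66 in M8/M4 (mean 0.60, adjusted p = 0.00155). Abcg2, which exports porphyrins and many drugs across the plasma membrane, had 1.26 and 1.32 in M8/F8 (mean 1.29, adjusted p = 0.000107) and 0.77 and 0.58 in M8/M3 (mean 0.67, adjusted p = 0.000666). Both also passed the test of a sex difference in the change from 3 to 8 wk, Abcb10 at 0.91 (adjusted p = 0.00513) and Abcg2 at 1.12 (adjusted p = 0.00177). Blvrb, a biliverdin reductase named here after its values were seen, passed it too at 0.61 (adjusted p = 0.00341), which made 3 of 32 (3.22% of all probes).

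The other genes called moved separately. Pgrmc1, a heme-binding membrane protein, rose in M8/M3 (0.87, adjusted p = 0.000358) and F8/F3 (0.69, adjusted p = 0.000759). Slco1b2, which takes up bilirubin and other anions from blood, rose in M8/M3 (0.92, adjusted p = 0.0374) and M8/M4 (0.98, adjusted p = 0.0302). Without M8/M4 replicate 2, 0 of the 32 genes were called up in M8/M4, and without M8/M3 replicate 1, 2 were called up in M8/M3. Por, the reductase that passes electrons to the cytochromes P450 and to heme oxygenase, was lower in M8 than in F8 (-1.38 and -0.50, mean -0.94, adjusted p = 0.0148), as was Flvcr2 (-0.60 and -0.87, mean -0.74, adjusted p = 0.00960). Flvcr1, a heme exporter, fell in F8/F3 (-0.86 and -0.66, mean -0.76, adjusted p = 0.00197).

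**Figure D5:**
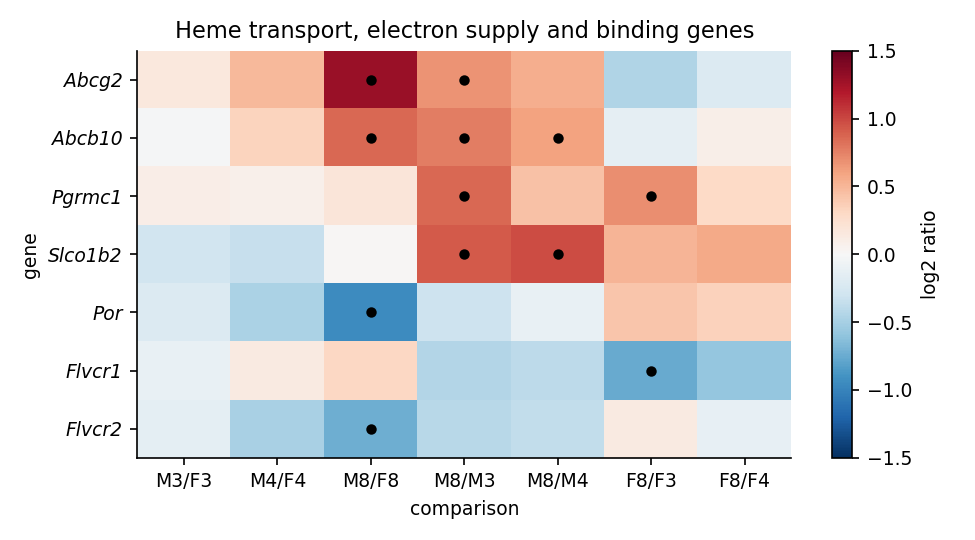
Fitted log2 ratio of 7 genes of heme transport, electron supply and binding in the 7 comparisons, as colour, with a dot where the gene was called. Abcg2 and Abcb10 are highest in M8/F8, where Por and Flvcr2 are lowest.

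Genes listed as candidate regulators of Alas1 were read on the same arrays, and their action on it was not tested. Of 12 such genes, 1 rose in M8/M3, the heme-sensing repressor Bach1 (1.00 and 1.03, mean 1.01, adjusted p = 0.00203), and 0 fell, against 16.8% of all probes called. In M8/F8 1 of 12 fell, Nr1i3, the xenobiotic receptor CAR (-0.62, adjusted p = 0.00383), and 0 rose (6.31% of all probes were called). In M4/F4 Ppargc1a, the fasting coactivator PGC-1alpha, was lower in males (-1.10, adjusted p = 0.0143). In F8/F3 3 rose and 0 fell (10.8% of all probes were called), namely Nr1i3 (0.82, adjusted p = 0.00135), Ppargc1a (0.82, adjusted p = 0.0430), and Bach1 (0.70, adjusted p = 0.00834). In M8/M4 Ppargc1a (0.81, adjusted p = 0.0436) and Bach1 (0.64, adjusted p = 0.0118) rose (10.1% of all probes were called), but 0 of the 12 rose when M8/M4 replicate 1 or M8/M4 replicate 2 was omitted, and 1 with the slide or the replicate number as a block.

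Genes of the circadian clock differed between 8 wk and the younger ages in both sexes, and the time of day of tissue collection is not given in the sources used here. In M8/M3 4 of 15 clock genes rose and 2 fell (16.8% of all probes were called), with Nr1d2 at 3.26, Nr1d1 at 2.96 and Dbp at 2.75. In F8/F3 6 of 15 rose and 2 fell (10.8% of all probes), with Nr1d2 at 3.28, Nr1d1 at 3.04 and Dbp at 2.98, and in F8/F4 4 rose and 4 fell (5.41% of all probes). In M8/M4 4 rose and 2 fell (10.1% of all probes), with Dbp at 2.90, Nr1d1 at 2.40 and Nr1d2 at 2.05. In M8/F8 0 rose and 1 fell (6.31% of all probes were called), Per1 (-1.71 and -0.69, mean -1.20, adjusted p = 0.0291). The 2 arrays disagreed there for Dbp (-1.65 and 0.47), Ciart (-3.05 and 0.09) and Npas2 (1.75 and -0.01), and agreed for Hlf (-0.20 and -0.19). The part of the clock genes in the age and sex values of Alas1 was not tested.

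The genes whose log2 ratios over the 14 arrays were most like those of Alas1, among 13028 genes, included Wfdc2 (Pearson r = 0.937), Mab21l4 (0.922), Lrrc1 (0.915) and Aacs (0.912). Those most like Alas2 were Abcg2 (0.965), C8a (0.965), Znrf2 (0.965), Ugt2b35 (0.963) and Dpy19l1 (0.956). Those most like Hmox1 were Samd4 (0.949), Miga1 (0.895), Pparg (0.894), Mras (0.894) and C5ar2 (0.890). Alas1 and Alas2 had a Pearson r of -0.71. These correlations are descriptions over arrays that share pools and 7 comparisons.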

How the data were processed

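Liver RNA pools of male and female CD-1 mice were compared on 14 two-colour Agilent arrays. For each spot, the authors deposited scanner output with intensities and processed intensities in arbitrary units, made with Feature Extraction 10.7.1.1, which had subtracted background and normalized the dyes (linear and LOWESS). It also holds the authors' log10 ratio of red over green with its modelled error as a deposited score, and flags for background. Log10 values in the table deposited for the whole series and in the scanner output did not differ (largest difference 0).

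Ratios were converted to log2 and turned by dye according to the labels. On the 6 arrays between sexes, Ddx3y lay between 5.80 and 7.24 and Xist between -6.67 and -5.10. Without controls an array held 43020 spots, of which 55.2% to 77.2% per channel (median 66.5%) were well above background and 0 were saturated. Up to 10 non-uniform spots per array were left out. The number of arrays limits the precision. Genes were named through RefSeq accessions (26055 of 39429 probes). Where a gene had several probes, the probe with the highest mean log2 processed intensity was used.

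Tests used limma 3.58.1 in R 4.3.3 with 7 comparison coefficients, 1 dye term and 6 residual degrees of freedom. They were first checked on simulated data in which the arrays were independent, so the effect of shared pools was not checked. Benjamini-Hochberg adjustment ran over all probes and comparisons together, and separately for each contrast derived from them (the interactions, and 3 to 4 wk through 8 wk). Alternatives numbered 13, and 14 more left out 1 array each, a comparison left with 1 array taking its spread from the pooled fit. The normexp alternative (offset 50) used the median spot signal, as no mean signal column was read. The interactions subtracted the female from the male age ratio (3 to 8 wk, and 4 to 8 wk). Lower bounds used normexp-corrected channels after loess and Aquantile normalization.

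Same-numbered arrays appeared to share pools. Between the replicates, the interactions calculated from the sex arrays and from the age arrays deviated together (r = 0.88 for 3 wk and 0.88 for 4 wk, over 21650 probes). In the main probes of the 9 genes these differed by at most 0.19 (median 0.03, n = 36). The p-values measure the spread between pools and arrays, not between mice.

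The 9 genes and all lists (heme pathway, Alas1 regulators, clock, CAR and PXR targets, NRF2 targets, erythroid, Kupffer, hepatocyte, lymphocyte and bile duct markers) were chosen with earlier results of these data known. Named genes were the 9 members, up to 8 called heme pathway genes with the largest ratios, up to 3 of each other list in the comparison where the member moved most, and the 5 genes most correlated with Alas1, Alas2 and Hmox1. Other list genes, and all marker genes, were named after their values were seen. Some genes that these rules would name are not reported here. Promoter windows came from RefSeq.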

Additional observations from a re-analysis of the deposited data

Results flagged for a closer look

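Alas2 changed differently with age in the sexes. The change from 3 to 8 wk in male liver minus that in female liver was 1.64 on the log2 scale (SE 0.23, limma adjusted p = 0.0134), 1.26 on replicate 1 and 2.02 on replicate 2. The male ratio was 1.37 and the female ratio -0.27. It passed with the replicate block (adjusted p = 0.0231), with the slide as a block (0.0446) and with the shared pools as a random effect (0.0406). It did not pass without M8/M3 replicate 1 (1.73, adjusted p = 0.0680) or without M8/M3 replicate 2 (1.56, adjusted p = 0.0757).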

How the results depend on the processing

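In M8/F8 and M8/M3 Alas1 and Alas2 were called under all 13 alternatives and without any 1 of the 14 arrays, and no called value reversed its sign. The counts of called genes among the 9 moved as follows. In M4/F4 the count was 0 with the slide block and with adjustment within each comparison (Alas2 was lost). In M8/M4 it was 4 with no ratio threshold, and 1 when ratios were median-centred with no loess and with the mean over the probes of a gene (Alas1 was lost). With no ratio threshold it was 3 in M8/F8 (Urod was gained), 3 in M8/M3 (Fech was gained), 3 in F8/F3 and 1 in F8/F4. For the interaction from 3 to 8 wk it was 2 with the replicate block, the slide block, the 6 group means, the error-weighted averages and normexp with loess. For the interaction from 4 to 8 wk it was 1 with the replicate block and the slide block, and 2 with the 6 group means, the error-weighted averages and normexp with loess. From 3 to 4 wk it was 1 in each sex with the replicate block, the 6 group means and the error-weighted averages (Alas1). The cause was not tested.

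The difference Alas1 minus Alas2 passed in M3/F3 with the 6 group means (-0.71). In M4/F4 it passed with no dye term and with the replicate block (-1.06 in each), the 6 group means (-1.04), the error-weighted averages (-1.06) and normexp with loess (-1.07). The replicate block changed no other call of the 9 genes or of this difference. Leaving out single arrays gave counts of 0 to 1 in M4/F4, 1 to 2 in M8/M4 (without replicate 2 Alas1 and Alas2 were lost and Hmox1 was gained), 0 to 1 in F8/F3 and 0 to 1 in each interaction, and differences of -1.24 to -0.89 in M4/F4, -1.91 to -1.70 in M8/M4 and -1.32 to -0.0063 in F8/F3. The 2 arrays of a comparison limit these calls.

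Erythroid markers called down in M8/M3 numbered 12 over all tested and 4 to 14 over the alternatives, with 4 where both groups had to be well above background. Kupffer markers called down ranged from 1 to 12 in M8/F8 (5) and from 1 to 11 in M8/M4 (2). Heme pathway genes called up ranged from 2 to 8 in M8/M3 (4) and from 0 to 7 in M8/M4 (2), and Alas1 regulators called up in M8/M4 from 0 to 3 (2). The highest Kupffer, heme pathway and Alas1 regulator counts came with no ratio threshold. The erythroid count of 14 was reached with no background condition, through Rhag (-1.70) and Add2 (-1.96), which were not well above background in M8. Over all probes, the calls were fewest for the 3 to 8 wk interaction with the pools as a random effect (287 against 850) and most with the 6 group means (1963). For 4 to 8 wk they were 27 and 1228 against 364. The M3/F3 calls ranged from 16 (adjustment within each comparison) to 719 (no ratio threshold) against 105. The M8/M3 calls fell from 4255 to 2116 with normexp and loess.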

Other observations

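A list of genes taken as targets of the xenobiotic receptors CAR and PXR was examined, most of them cytochrome P450 genes, whose products carry heme. It also held the non-P450 genes Por, Abcc3 and Gadd45b. Of these 13 listed genes 9 were lower in male liver, Por among them, and 0 higher in M8/F8 (3.49% of all probes were lower), with a median log2 ratio of -1.18. The paper describes Cyp2b9 as high in both sexes before puberty and then repressed in male liver. Cyp2c55 and Abcc3 lay above 0 and were not called. Cyp2b9 was at -4.22 and -4.88 (mean -4.55, limma adjusted p = 0.000189), Cyp2c37 at -2.94 and -3.09 (mean -3.02, adjusted p = 0.000164) and Cyp2b13 at -2.66 and -2.80 (mean -2.73, adjusted p = 0.00217). In M8/M3 6 fell and 1 rose (16.8% of all probes were called), the exporter Abcc3 (1.72, adjusted p = 0.00013). In F8/F3 6 rose and 1 fell (10.8% of all probes were called), Cyp2c55 (-1.48, adjusted p = 0.00463). Neither the activity of the receptors nor the relation of these genes to the values of Alas1 was tested.

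Of 7 NRF2 targets, 3 were higher and 1 lower in M8/F8 (6.31% of all probes were called), where Hmox1 was not called: Osgin1 (1.36, adjusted p = 0.000126), Ephx1 (0.99, adjusted p = 0.0212) and Gclc (0.84, adjusted p = 0.00623) were higher and Nqo1 (-0.99, adjusted p = 0.00465) lower. Of 13 Kupffer markers 5 were lower in M8/F8 and 0 higher, with a median of -0.55 (3.49% of all probes were lower). Without M8/F8 replicate 1 the count was 9 and without replicate 2 it was 1. Of 7 lymphocyte and 7 bile duct markers tested in M8/F8 0 were called by limma, with 5 lymphocyte and 2 bile duct markers at an unadjusted p below 0.05.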
